A study of Mus musculus with 22 samples.

Results

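The collagen genes were followed through RNA pulled down with tagged ribosomes, a method aimed at astrocytes, and through the remaining RNA of the same mouse spinal cords. They were taken as every row whose symbol consists of Col, a number, a and a number. This gave 44 of 24060 gene rows, read in all 22 libraries.

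The mice were young adult females in 3 groups, and every animal gave an HA immunoprecipitate (HA IP) library and a flow-through library. The STAT3-CKO SCI group (n = 3) carried mGFAP-Cre-RiboTag-STAT3-LoxP, and its cord, severely crushed at thoracic level 10, was taken on day 14. The WT SCI group (n = 4) carried mGFAP-Cre-RiboTag and had the same injury. The uninjured group (n = 4) carried mGFAP-Cre-RiboTag and was not injured. An uninjured group with the floxed Stat3 allele was not analysed here, so the genotype comparison is within injured cord. All animals thus carry a Cre under a mouse Gfap promoter together with RiboTag, by which cells in which Cre has acted make a ribosomal protein tagged with hemagglutinin (HA). HA IP is RNA pulled down with those ribosomes, and it also held markers of other cells, given below. The flow-through is what the antibody left behind, and it can still hold RNA of the tagged cells. Injured tissue was the central 3 mm of the lesion.

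Collagens are secreted or membrane-anchored proteins built from chains wound around each other into a helix. After synthesis the chains are hydroxylated, assembled with the help of chaperones, secreted, trimmed and crosslinked by lysyl oxidases. In the healthy central nervous system they lie mostly in the vascular basement membrane and the meninges, and after spinal cord injury a collagen-rich fibrotic core forms that is bordered by reactive astrocytes. By class, the 44 genes were 11 fibrillar chains, 9 fibril-associated chains, 6 basement membrane chains (type IV), 6 beaded filament chains (type VI), 4 transmembrane chains, 3 short-chain network chains, 2 multiplexins and 3 others (Col7a1, Col26a1 and Col28a1).

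The promoters of 3 genes are printed because results below turn on them. They are Col16a1, which differed between the injured genotypes in HA IP, Col23a1, which stood highest in HA IP over flow-through, and Col3a1, which had one of the largest injury differences in both fractions. Each is the 250 bases just before the gene's start from RefSeq (GRCm38.p6), on the plus strand, at chr4:130047590-130047839, chr11:51289670-51289919 and chr1:45311288-45311537. Capitals mark GGGCGG (an Sp1 motif, written CCGCCC on the other strand), CCAAT and TATAAA.
Col16a1: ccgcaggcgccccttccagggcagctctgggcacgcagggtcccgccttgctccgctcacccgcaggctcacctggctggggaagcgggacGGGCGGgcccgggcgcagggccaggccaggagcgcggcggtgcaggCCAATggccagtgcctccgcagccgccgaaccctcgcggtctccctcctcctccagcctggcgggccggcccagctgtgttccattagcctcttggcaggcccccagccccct
Col23a1: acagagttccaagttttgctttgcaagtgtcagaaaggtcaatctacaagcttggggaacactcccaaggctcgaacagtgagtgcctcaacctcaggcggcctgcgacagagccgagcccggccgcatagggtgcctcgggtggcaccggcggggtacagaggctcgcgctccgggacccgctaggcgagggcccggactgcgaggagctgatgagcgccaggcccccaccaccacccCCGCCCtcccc
Col3a1: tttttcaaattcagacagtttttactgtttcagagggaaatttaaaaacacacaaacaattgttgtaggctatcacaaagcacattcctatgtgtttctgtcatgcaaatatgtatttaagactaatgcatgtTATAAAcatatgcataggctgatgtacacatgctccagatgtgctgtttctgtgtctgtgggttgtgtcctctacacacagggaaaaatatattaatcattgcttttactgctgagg
The Col16a1 window was 75.6% G or C and held GGGCGG 159 and CCAAT 113 bases before the start. The Col23a1 window was 66.0% G or C with CCGCCC 11 bases before the start, and the Col3a1 window was 35.2% G or C with TATAAA 117 bases before the start. For 35 of the 44 genes a RefSeq window was matched, 38 windows in all. Searched on both strands, GGGCGG was in 57.9% of them and in 32.7% of the 32851 windows of all genes. CCAAT was in 34.2% against 33.8%, TATAAA in 13.2% against 12.4%, and the STAT motif TTCNNNGAA in 5.26% against 7.02%. TGACTCA, the AP-1 motif, was in 2.63% of collagen windows and in 4.46% of all windows.

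Sequencing depth for these genes was low and unequal. Collagens drew 878 to 9146 counts per HA IP library in STAT3-CKO SCI, 221 to 1433 in WT SCI and 5161 to 10472 in uninjured cord. In flow-through they drew 114 to 2954, 33 to 349 and 291 to 1225 counts in the same groups. The ribosomal precursor Rn45s accounted for 52.2% to 89.2% of HA IP counts in STAT3-CKO SCI, 89.0% to 96.2% in WT SCI and 12.6% to 26.7% in uninjured cord, so injury and the Rn45s share cannot be told apart. Stat3 in HA IP lay at 7.85 to 12.3 CPM (counts scaled to a fixed library size) in STAT3-CKO SCI, below the 26.3 to 66.1 CPM in WT SCI (log2 difference −2.17 ± 0.34 SE, adjusted p = 0.00331, edgeR), and at 12.2 to 15.5 CPM in uninjured cord. Astrocyte markers were 8 of 8 higher in HA IP than in flow-through of uninjured cord, and 0 of 8 were at 0 in any group.

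The summed collagen level was higher in every injured library than in uninjured cord, in both fractions. In CPM computed over counts outside Rn45s, Lars2 and Mir6236, the 44 genes together had 352 to 527 CPM in STAT3-CKO SCI HA IP libraries, 356 to 831 in WT SCI and 165 to 203 in uninjured cord. In flow-through they had 247 to 734 in STAT3-CKO SCI, 360 to 567 in WT SCI and 93.6 to 121 in uninjured cord. These sums were described and not tested, and the injured groups overlapped each other.

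The make-up by class also differed between fractions and conditions. Taken per kb of transcript, transmembrane chains held 4.43% to 14.4% of collagen counts in STAT3-CKO SCI HA IP libraries, 2.33% to 10.0% in WT SCI and 22.5% to 31.8% in uninjured cord. Most of that was Col23a1, at a mean of 7.59% in STAT3-CKO SCI, 6.43% in WT SCI and 25.9% in uninjured cord. The level of Col23a1 in HA IP, given below, was not called in WT SCI over uninjured cord. Fibrillar chains held 54.7% to 68.5% of flow-through collagen counts in STAT3-CKO SCI, 39.3% to 67.4% in WT SCI and 18.9% to 36.1% in uninjured cord. In HA IP the fibrillar share was alike in the group means, at 35.5% ± 10.5 in STAT3-CKO SCI (SD, n = 3), 33.7% ± 17.2 in WT SCI (SD, n = 4) and 33.0% ± 1.21 in uninjured cord (SD, n = 4).

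**Figure D1:**
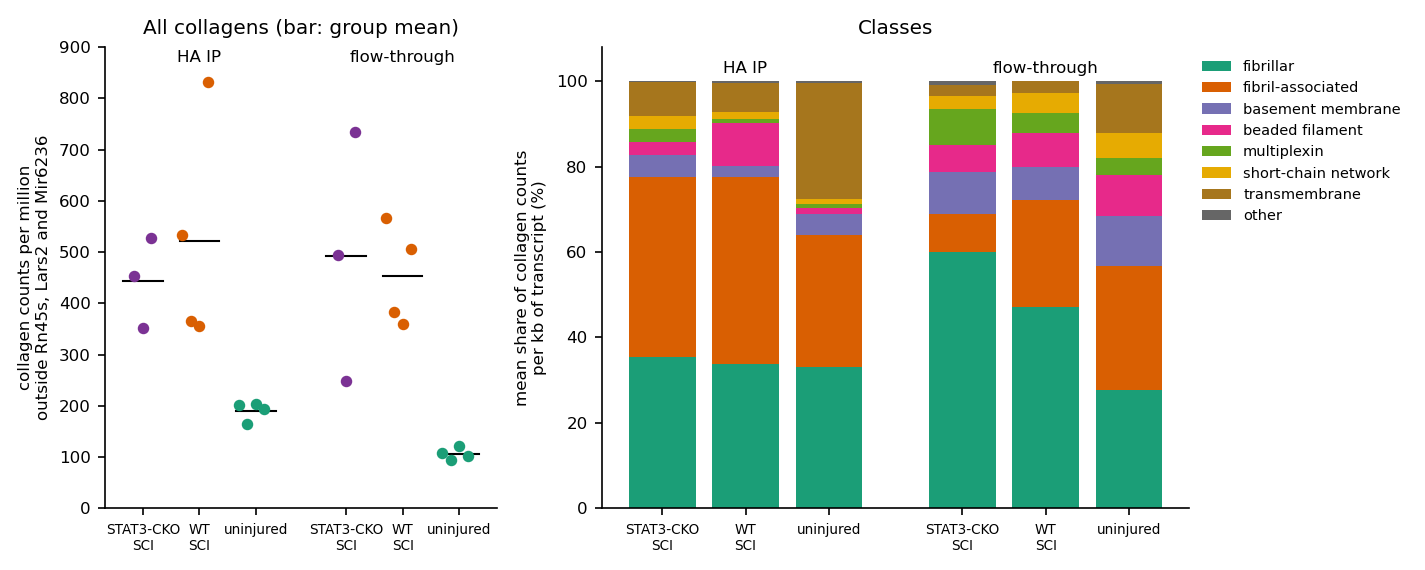
Left, summed collagen CPM over counts outside Rn45s, Lars2 and Mir6236 for each library, with bars at group means. Right, the mean share of each collagen class in the collagen counts per kb of transcript. Totals in all injured libraries lie above those of uninjured cord. The transmembrane class, mostly Col23a1, is 27.1% of uninjured HA IP, 8.04% in STAT3-CKO SCI and 6.66% in WT SCI.

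The leading chains differed between groups. Per kb of transcript, the highest means in HA IP of uninjured cord were those of Col23a1, a transmembrane collagen, at 1.47 CPM per kb, of Col1a2, the second chain of type I collagen, at 1.43, and of Col9a3, a chain of the fibril-associated type IX, at 1.15. In HA IP of STAT3-CKO SCI, Col9a3 led at 4.86 CPM per kb and Col1a2 followed at 2.32. The same 2 chains led in WT SCI, at 5.06 and 3.47 CPM per kb. Flow-through of STAT3-CKO SCI was led by Col1a2 at 3.87 and Col1a1 at 2.78 CPM per kb, and that of WT SCI by the same pair at 2.90 and 2.85. Flow-through of uninjured cord was led by Col9a3 at 0.336, Col1a2 at 0.316 and Col4a2, a basement membrane chain, at 0.297 CPM per kb. HA IP and flow-through levels stand on different CPM scales here and are compared below in fits of their own. Library values below run in the order of animals 186, 531 and 270 for STAT3-CKO SCI, 9935, 9874, 9843 and 9596 for WT SCI, and 42, 79, 65 and 154 for uninjured cord.

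In HA IP of WT mice, injury went with higher levels of 14 of the 32 collagens that had enough counts to test, and 0 were lower. Over all 14764 genes tested, 26.7% were called in either direction and 15.8% were called higher (adjusted p under 0.05, edgeR). The median log2 difference was 1.95 over the tested collagens, also with the 3 genes at 0 counts in WT SCI set to their bound, and 0.00 over all genes. Of the 14, 9 kept their call in all 8 fits that left out 1 library of these groups. Col6a1 kept it in the 6 such fits in which it could be tested, since it fell below the count filter without WT SCI animal 9874 or 9843. In such tissue RNA, more cells of a type and more RNA per cell cannot be told apart.

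Of the fibrillar chains, 5 of 11 rose: Col1a1, Col3a1, Col5a1, Col11a1 and Col11a2. Col1a1, the main chain of type I collagen (ENSMUSG00000001506.10, chr11:94936224-94953042, mm10), had 1.96, 3.51, 9.59 and 3.57 CPM in WT SCI HA IP, against 0.518, 0.469, 0.318 and 0.314 CPM in uninjured cord. Col3a1, which forms type III collagen of loose fibrils (ENSMUSG00000026043.18, chr1:45311538-45349706), had 1.96, 0.566, 3.49 and 1.78 CPM in WT SCI, against 0.0178, 0.141, 0 and 0.0663 CPM in uninjured cord. Col11a2, a chain of the fibril-nucleating type XI (ENSMUSG00000024330.17, chr17:34039437-34066685), had 6.19, 4.30, 20.7 and 3.84 CPM in WT SCI, against 0.666, 0.569, 0.979 and 0.558 CPM in uninjured cord. For all 3 of these genes every WT SCI library was above every uninjured library. The log2 differences were 3.53 ± 0.62 for Col1a1 (adjusted p = 0.000389), 5.07 ± 1.05 for Col3a1 (0.00158) and 3.65 ± 0.57 for Col11a2 (0.000111; SE, edgeR). Col5a1, which helps to start fibrils, rose by 3.39 ± 0.69 (0.00142), and Col11a1 by 3.29 ± 0.81 (0.00549).

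Their partner chains did not all pass. Col1a2 (ENSMUSG00000029661.16, chr6:4504814-4541544) had 15.3, 4.86, 43.9 and 10.1 CPM in WT SCI HA IP, against 7.55, 5.65, 8.75 and 8.65 CPM in uninjured cord. WT SCI animal 9874 lay below all uninjured libraries, while the other 3 lay above them. The log2 difference was 1.27 ± 0.48 (adjusted p = 0.0552, edgeR). It was 1.59 (0.00829) without animal 9874, 1.48 (0.033) without 9596 and 0.37 (0.498) without 9843. Col5a2, the partner of Col5a1, had 0, 0.226, 0 and 0.411 CPM in WT SCI, against 0.139, 0.183, 0.0796 and 0.143 CPM in uninjured cord. The groups overlapped (0.60 ± 0.90, adjusted p = 0.653, edgeR). Col2a1 and Col24a1 had 0 counts in all WT SCI HA IP libraries, against 197 and 176 in uninjured cord. At this depth, with a floor of 3 counts over the group, Col2a1 was at least 2.16-fold and Col24a1 at least 1.93-fold lower in WT SCI. These bounds cover counting error only and leave out the spread between animals. In the test, which includes that spread, neither gene was called (0.0509 and 0.101).

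**Figure D2:**
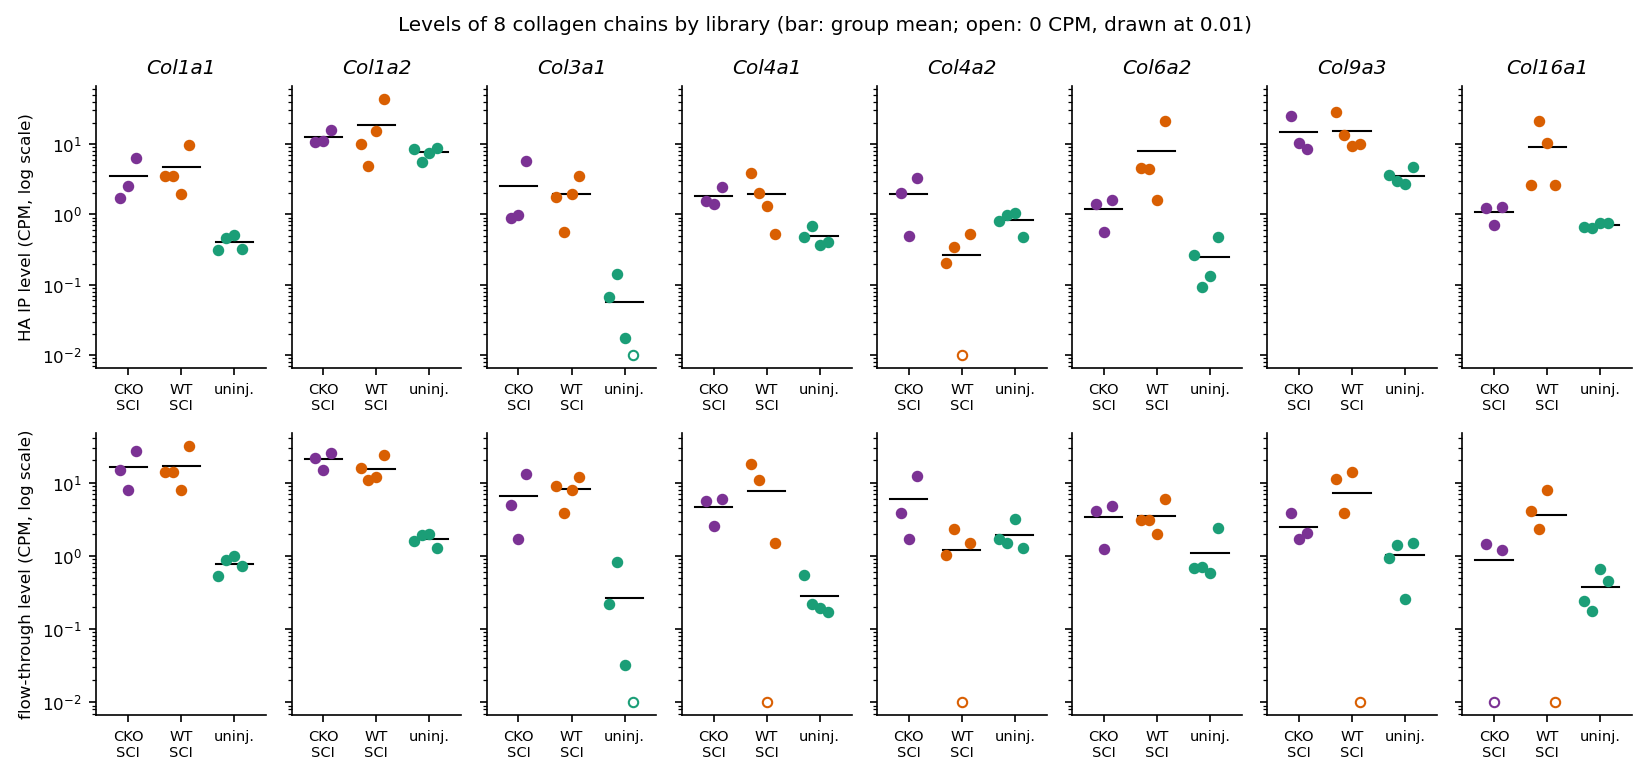
Level in CPM on a log scale of 8 collagen chains in each library, HA IP above and flow-through below, by group from STAT3-CKO SCI to WT SCI to uninjured, with bars at group means and open points for 0 CPM. Col1a1 and Col3a1 are higher in every injured library than in every uninjured one in both fractions, and Col16a1 in HA IP is at 2.61 to 21.04 CPM in WT SCI and at 0.701 to 1.29 CPM in STAT3-CKO SCI.

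Of the fibril-associated chains, which sit on the surface of fibrils, 4 of 7 tested rose in WT SCI HA IP: Col9a1, Col9a3, Col16a1 and Col20a1. Col9a3 (ENSMUSG00000027570.15, chr2:180597790-180622189) had 9.45, 13.3, 10.1 and 28.8 CPM in WT SCI, against 2.75, 2.96, 4.72 and 3.59 CPM in uninjured cord. Col16a1 (ENSMUSG00000040690.15, chr4:130047840-130099283), whose promoter is printed above, had 10.4, 21.04, 2.62 and 2.61 CPM in WT SCI, against 0.766, 0.642, 0.759 and 0.666 CPM in uninjured cord. In both genes the groups did not overlap, and in Col16a1 the 4 WT SCI animals fell into a higher and a lower pair. The differences were 2.16 ± 0.43 for Col9a3 (adjusted p = 0.00118) and 3.69 ± 0.64 for Col16a1 (0.000328, edgeR). Col20a1 rose by 4.16 ± 0.92 (0.00257), or 2.601 (0.0308) without WT SCI animal 9596. Col9a1 rose by 3.36 ± 1.01 (0.0199), which rested on animal 9596: without it the difference was 0.08 (0.972), and without any 1 uninjured library its adjusted p was 0.0576 to 0.0666. Col12a1, which links fibrils to other matrix, did not differ beyond its spread (2.74 CPM in WT SCI and 3.17 CPM in uninjured cord, adjusted p = 0.89, edgeR).

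Type IV chains, the network of basement membranes, were split. Col4a1 and Col4a2, which assemble into 1 trimer, lie head to head on chromosome 8 (chr8:11198423-11312826 on the minus strand, chr8:11312805-11449287 on the plus strand) and overlap at their starts. No strand setting is given in the sources used here, so reads in that overlap cannot be assigned. Col4a1 had 1.30, 2.04, 0.523 and 3.84 CPM in WT SCI HA IP, against 0.370, 0.694, 0.404 and 0.478 CPM in uninjured cord. Col4a2 had 0, 0.339, 0.523 and 0.206 CPM in WT SCI, against 1.04, 0.975, 0.484 and 0.806 CPM in uninjured cord. In Col4a1 only animal 9843 fell within the uninjured range, and it was the highest WT SCI animal for Col4a2. The difference was 2.04 ± 0.66 for Col4a1 (adjusted p = 0.0273) and −1.54 ± 0.83 for Col4a2 (0.175, edgeR). The Col4a1 call was lost without WT SCI animal 9596 (1.44, 0.106) or without any 1 uninjured library (0.0525 to 0.087).

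Of the 3 tested chains of type VI collagen, which forms beaded microfilaments, 2 rose. Col6a1 had 0, 2.38, 6.45 and 0.549 CPM in WT SCI HA IP, against 0.0118, 0.0417, 0.0367 and 0.0105 CPM in uninjured cord. Col6a2 had 1.63, 4.41, 21.3 and 4.53 CPM in WT SCI, against 0.133, 0.0939, 0.484 and 0.269 CPM in uninjured cord. WT SCI animal 9843 was the highest for both chains, and animal 9935 had no Col6a1 count. The differences were 6.54 ± 1.27 for Col6a1 (adjusted p = 0.000875) and 5.03 ± 0.80 for Col6a2 (0.000142), against 1.94 ± 0.96 for Col6a3 (0.139, edgeR). Among the remaining classes, Col15a1, a multiplexin of basement membrane zones, rose by 2.92 ± 0.99 (0.0346), and Col8a1, a short-chain network collagen, by 2.70 ± 0.77 (0.0139). Col15a1 lost its call without WT SCI animal 9596 (2.00, 0.181) or any 1 uninjured library (0.052 to 0.0924), and Col8a1 without uninjured animal 79 (0.0588) or 154 (0.0531). Of the transmembrane chains, Col23a1 stood at 6.94 CPM in WT SCI and 8.29 CPM in uninjured cord, and Col25a1 at 0.129 CPM in WT SCI and 0.455 CPM in uninjured cord. Neither passed (adjusted p = 0.719 and 0.261, edgeR).

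**Figure D3:**
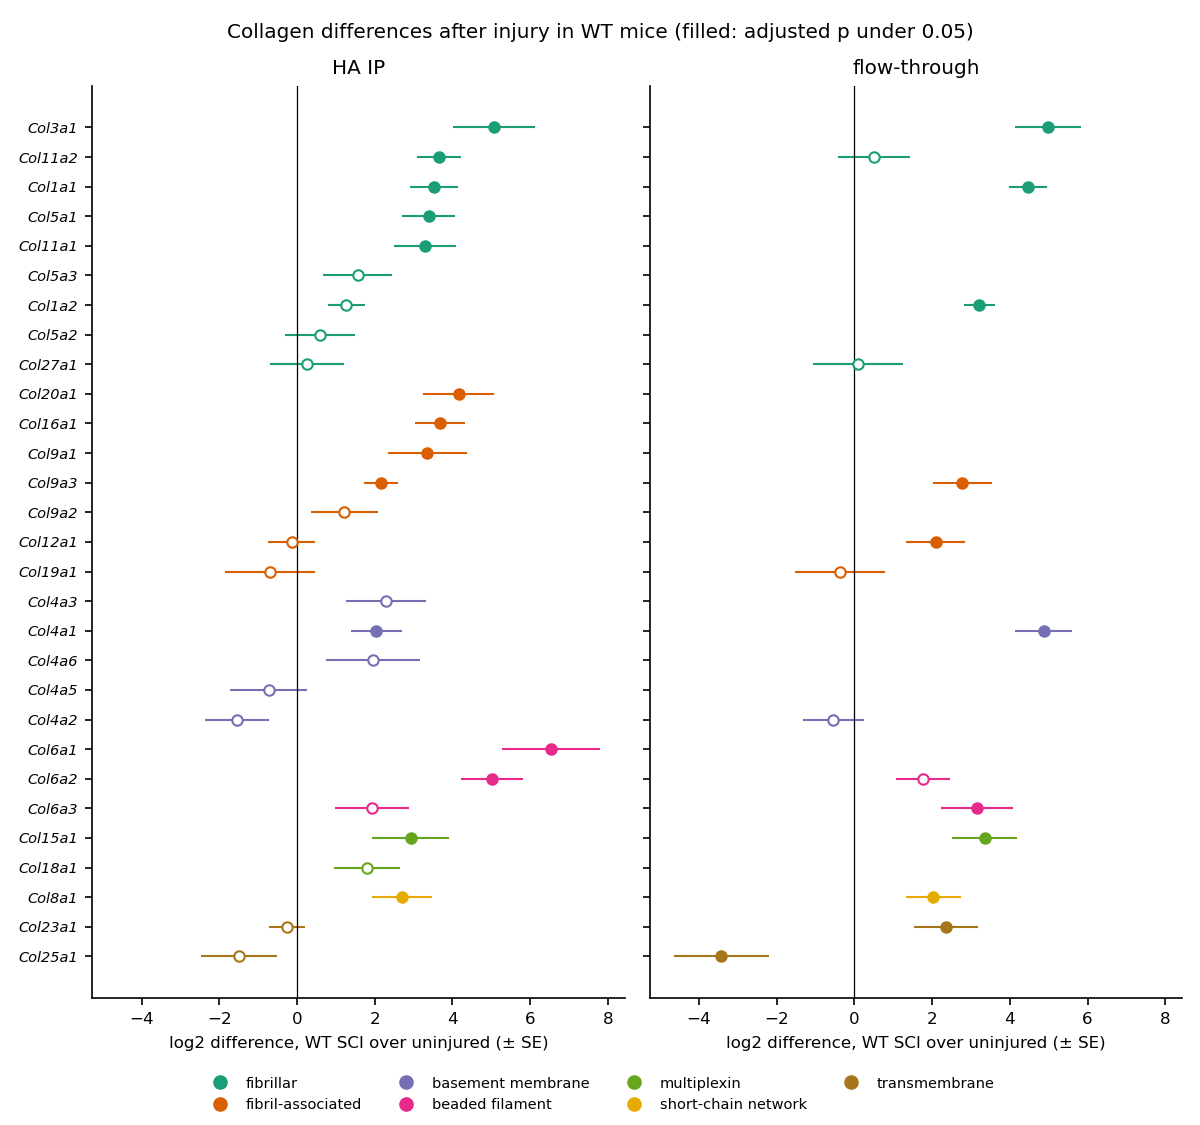
Log2 difference between WT SCI and uninjured cord with its SE for each tested collagen, coloured by class, in HA IP (left) and flow-through (right). Filled points passed an adjusted p under 0.05, and Col2a1, Col8a2 and Col24a1, with 0 counts in WT SCI HA IP, are left out. Most points lie above 0 in both fractions, while Col4a2, Col19a1 and Col25a1 lie below 0 in both.

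Markers of other cells were counted in HA IP of WT SCI over uninjured cord as well. In that comparison 26.7% of all genes were called, 15.8% higher and 10.9% lower. Of the fibroblast markers, 3 of 9 tested rose in WT SCI (Postn, Dcn and Pdgfra), with summed levels of 91.8 to 101.8 CPM in STAT3-CKO SCI, 75.4 to 103 in WT SCI and 69.7 to 76.3 in uninjured cord, and none was at 0. Pericyte and smooth muscle markers summed to 9.38 to 26.5 CPM in STAT3-CKO SCI, 9.84 to 21.3 in WT SCI and 1.13 to 1.70 in uninjured cord. In that list 2 of 7 rose in WT SCI, and Rgs5 was at 0 there. Microglia and macrophage markers, 9 of 10 higher, summed to 684 to 912 CPM in STAT3-CKO SCI, 503 to 1967 in WT SCI and 9.68 to 23.1 in uninjured cord, with none at 0. Oligodendrocyte precursor markers, 6 of 6 higher, summed to 395 to 685, 477 to 608 and 150 to 264 CPM in the same groups, again with none at 0. Pdgfra stands in both this list and the fibroblast list. Schwann cell markers, 3 of 7 higher, summed to 2183 to 2570, 4005 to 6916 and 681 to 1010 CPM, and Pmp2 was at 0 in WT SCI. That list includes Mbp and Sox10, which oligodendrocytes also express, so its sum is not a measure of Schwann cells. Endothelial markers summed to 0.992 to 4.19 CPM in STAT3-CKO SCI, 0.0686 to 5.21 in WT SCI and 0.219 to 0.32 in uninjured cord. Pecam1, Cdh5, Cldn5 and Erg were at 0 in WT SCI, and of the 2 that could be tested, Kdr and Esam, 0 passed in edgeR while both had an unadjusted p under 0.05 (median log2 difference 3.07). Neuron markers, 0 of 8 higher and 4 lower (median −1.23), summed to 123 to 288 CPM in STAT3-CKO SCI, 83.3 to 200.4 in WT SCI and 375 to 679 in uninjured cord, with none at 0. Of the astrocyte markers themselves, 2 of 8 rose (Gfap and S100b) and 4 fell (Aqp4, Gja1, Slc1a3 and Aldoc), with a median of −0.82 and none at 0. They summed to 2819 to 3721 CPM in STAT3-CKO SCI, 3898 to 6328 in WT SCI and 4313 to 5148 in uninjured cord. The part of these cells in the collagen differences was not tested.

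In HA IP of STAT3-CKO SCI mice, 10 of 32 collagens were higher than in uninjured cord and 0 were lower, with 9.78% of all genes called and 7.7% called higher. The median log2 difference was 1.98 over the tested collagens and 0.00 over all genes. This comparison shares the uninjured libraries with that of WT SCI. Col1a1 had 2.52, 1.72 and 6.28 CPM in STAT3-CKO SCI, a difference of 3.12 ± 0.63 over uninjured cord (adjusted p = 0.00244, edgeR). Col3a1 had 0.981, 0.885 and 5.71 CPM, a difference of 5.49 ± 1.07 (0.00184). Col11a2 had 5.89, 6.14 and 4.37 CPM (2.98 ± 0.57, 0.00148), and Col5a1 had 3.22, 1.15 and 1.94 CPM (3.74 ± 0.71, 0.00142). All STAT3-CKO SCI libraries were above all uninjured ones for these 4 fibrillar chains, and all 4 kept their call when any 1 library was left out. Col9a3 had 10.4, 25.3 and 8.62 CPM (2.08 ± 0.45, 0.00438), also with no overlap, but lost its call without animal 531 (1.43, 0.0829).

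The other called members had less support. Col9a1 rose by 3.85 ± 1.03 (adjusted p = 0.021), Col20a1 by 3.36 ± 0.91 (0.023), Col15a1 by 3.24 ± 0.99 (0.0446) and Col18a1, the precursor of endostatin, by 3.40 ± 0.85 (0.0127, edgeR). Col6a1 had 0, 0.134 and 0.795 CPM in STAT3-CKO SCI, a difference of 3.77 ± 1.17 (0.0465), which was 1.70 (0.485) without animal 270. Col9a1 and Col20a1 lost their calls without animal 531 (0.0823 and 0.0923) or any 1 uninjured library, Col15a1 and Col6a1 without any library but that of animal 186, and Col18a1 without uninjured animal 42, 65 or 154 (0.0669 to 0.0722). The count of 10 fell to 5 without uninjured animal 42 or 154 or STAT3-CKO SCI animal 531, and to 6 without uninjured animal 79 or 65. Chains of the same trimers that missed the threshold were Col1a2 with 11.002, 10.6 and 15.6 CPM (0.70 ± 0.50, 0.44), Col5a2 with 0.701, 0.992 and 0.683 CPM (2.53 ± 0.83, 0.0598), Col11a1 with 1.12, 2.98 and 2.93 CPM (2.32 ± 0.80, 0.0733) and Col6a2 with 0.561, 1.39 and 1.61 CPM (2.32 ± 0.75, 0.057). All 4 of these chains were above uninjured cord in every STAT3-CKO SCI library. Col4a1 had 1.40, 1.56 and 2.45 CPM (1.90 ± 0.67, 0.0824), and Col4a2 had 0.491, 2.04 and 3.31 CPM (1.26 ± 0.73, 0.329), overlapping uninjured cord.

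Between the injured genotypes 1 of 32 collagens in HA IP passed, with 1.16% of all genes called and 0.562% called lower. Col16a1, described above as raised by injury in WT mice, had 0.701, 1.23 and 1.29 CPM in STAT3-CKO SCI, against 10.4, 21.04, 2.62 and 2.61 CPM in WT SCI. The STAT3-CKO SCI libraries were all below WT SCI. The lowest of them lay within the 0.642 to 0.766 CPM of uninjured cord and the other two lay above it (0.63 ± 0.63 over uninjured cord, adjusted p = 0.613, edgeR). The difference from WT SCI was −3.06 ± 0.71 (adjusted p = 0.0382, edgeR). Leaving out WT SCI animal 9874 gave −2.19 (0.0904), and leaving out STAT3-CKO SCI animal 186, 531 or 270 gave −2.85 (0.116), −3.16 (0.133) and −3.23 (0.142). With only the 2 injured groups in the fit it was −3.10 (0.156). The Rn45s share was 52.2% to 89.2% in STAT3-CKO SCI and 89.0% to 96.2% in WT SCI, and of the astrocyte markers 0 of 8 rose and 2 fell there; their part in this difference was not tested.

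Other differences between the injured genotypes did not pass that test. Across the tested collagens the median difference was −0.11, against 0.03 over all genes, and 7 had an unadjusted p under 0.05. Col6a2 averaged 1.19 CPM in STAT3-CKO SCI and 7.96 CPM in WT SCI, with no overlap (−2.71 ± 0.81, adjusted p = 0.107, edgeR). DESeq2 called it (−2.79, 0.01), along with Col16a1 (−3.14, 0.000182) and Col4a2 (2.76, 0.0209). For Col6a2 the edgeR value was −1.58 (0.266) without WT SCI animal 9843 and −3.02 (0.0497) without 9935. Col4a2 averaged 1.95 CPM in STAT3-CKO SCI and 0.267 CPM in WT SCI (2.80 ± 0.87, 0.12). Col8a2, with 72 counts in STAT3-CKO SCI and 0 in WT SCI, was at least 4.62-fold higher in STAT3-CKO SCI by the floor of 3 counts. That bound leaves out the spread between animals, and Col8a2 did not pass either (0.123). Col1a1, Col1a2, Col3a1 and Col9a3 had differences of −0.41 ± 0.62, −0.57 ± 0.51, 0.42 ± 0.96 and −0.08 ± 0.45, smaller than or close to their SE.

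In flow-through, the RNA that the antibody left behind, 10 of 16 tested collagens were higher in WT SCI than in uninjured cord and 1 was lower, with 31% of all 12685 genes called, 16.7% higher and 14.3% lower. The median log2 difference was 2.22 over the tested collagens and −0.09 over all genes. Col1a1 had 7.88, 13.9, 31.7 and 14.0 CPM in WT SCI, against 0.986, 0.867, 0.729 and 0.521 CPM in uninjured cord. Col1a2 had 11.8, 10.8, 23.6 and 15.7 CPM in WT SCI, against 1.99, 1.91, 1.29 and 1.58 CPM in uninjured cord. Col3a1 had 7.88, 3.87, 11.8 and 8.86 CPM in WT SCI, against 0.0318, 0.823, 0 and 0.221 CPM in uninjured cord. These 3 fibrillar chains did not overlap between groups. Their differences were 4.48 ± 0.49 (adjusted p = 8.48e-08), 3.21 ± 0.40 (5.73e-07) and 4.98 ± 0.84 (4.76e-05, edgeR), and they kept their calls without any 1 library.

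Col4a1 in flow-through had 0, 10.8, 1.48 and 18.1 CPM in WT SCI, against 0.191, 0.217, 0.168 and 0.541 CPM in uninjured cord. Col4a2 had 0, 2.32, 1.48 and 1.02 CPM in WT SCI, against 3.21, 1.47, 1.29 and 1.68 CPM in uninjured cord. Animal 9935, the shallowest library, had no count of either chain. Col4a1 rose by 4.87 ± 0.74 (adjusted p = 1.1e-05), which held without any 1 library, and Col4a2 differed by −0.54 (0.639, edgeR). Col9a3 had 13.8, 3.87, 0 and 11.2 CPM in WT SCI, against 0.254, 1.39, 1.51 and 0.942 CPM in uninjured cord, a rise of 2.77 ± 0.76 (0.00652). Animal 9843 had no Col9a3 count, and the other 3 WT SCI animals were above uninjured cord.

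Col15a1 rose by 3.35 ± 0.83 (adjusted p = 0.00319), Col6a3 by 3.16 ± 0.92 (0.0105), Col23a1 by 2.35 ± 0.83 (0.0326), Col12a1 by 2.10 ± 0.76 (0.0371) and Col8a1 by 2.04 ± 0.71 (0.0296, edgeR). Col25a1, a transmembrane collagen of neurons, fell: 1 count in WT SCI against 316 in uninjured cord, a ratio of 12.5 with a counting interval of 2.23 to 496 (adjusted p = 0.0335). Col6a3 fell below the count filter without uninjured animal 79 or 154. Without animal 9596 the calls of Col9a3 (2.23, 0.0713), Col15a1 (2.34, 0.11), Col6a3 (2.89, 0.0503), Col23a1 (1.56, 0.291) and Col12a1 (0.83, 0.561) were lost. Col12a1 and Col23a1 also lost theirs without uninjured animal 79, 65 or 154 (0.0618 to 0.109), Col23a1 without 9874 (0.0548), and Col8a1 without 79, 154 or 9843 (0.085 to 0.117). Col25a1 lost its call without 42, 154, 9874 or 9843 (0.0503 to 0.0791), and without 9596 it was at 0 in WT SCI. The count of 11 fell to 6 without WT SCI animal 9596 or uninjured animal 154 and to 7 without uninjured animal 79.

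Of the collagens called after injury in WT mice, 6 were called in both fractions: Col1a1, Col3a1, Col4a1, Col8a1, Col9a3 and Col15a1. Only 16 collagens were tested in both fractions, so HA IP calls such as Col5a1, Col6a1 and Col20a1 could not be shared. Among those 16, the 6 made up 75.0% of 8 HA IP calls and 54.5% of 11 flow-through calls. Among all 12682 genes tested in both, 1890 shared calls were 53.6% of HA IP calls and 48.1% of flow-through calls. The 2 fractions come from the same animals. The flow-through marker counts that follow stand beside 31% of all genes called, 16.7% higher and 14.3% lower. Marker sums in flow-through were 125 to 157 CPM in STAT3-CKO SCI, 83.4 to 103 in WT SCI and 199 to 260 in uninjured cord for fibroblasts. In that list 4 of 7 tested were higher in WT SCI, 1 was lower (Thy1) and none was at 0. The sum was thus lower after injury although most tested members were higher, so it does not follow the list as a whole. For pericytes and smooth muscle they were 15.5 to 34.4, 7.88 to 57.5 and 0.617 to 3.26 CPM, with 1 of 3 tested higher and Rgs5, Des, Acta2 and Myh11 at 0 in WT SCI. Microglia and macrophage markers summed to 2653 to 3755 CPM in STAT3-CKO SCI, 2387 to 7527 in WT SCI and 33.1 to 65.1 in uninjured cord, 9 of 10 higher and none at 0. Neuron markers, 7 of 8 lower, summed to 893 to 1293, 328 to 756 and 2670 to 3329 CPM, with none at 0. Astrocyte markers were also higher in flow-through, 6 of 8 in WT SCI over uninjured cord (median log2 difference 1.57), with sums of 482 to 1154 CPM in STAT3-CKO SCI, 1282 to 1610 in WT SCI and 364 to 570 in uninjured cord and none at 0. The Schwann cell list, again with Mbp and Sox10 in it, had 1 of 5 tested higher. It summed to 1714 to 2423, 3210 to 3861 and 1794 to 2361 CPM, with Pmp2 and Foxd3 at 0 in WT SCI. Oligodendrocyte precursor markers, 2 of 6 higher and none at 0, summed to 84.5 to 189, 72.9 to 126 and 65.8 to 99.0 CPM. Endothelial markers could not be tested there, and 7 of 8 were at 0 in WT SCI. The part of these cells in the collagen differences was not tested.

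Flow-through of STAT3-CKO SCI had 5 of 16 collagens above uninjured cord and 0 below it, with 13.9% of all genes called and 10.4% called higher. The uninjured libraries are those of the WT SCI comparison. Col1a1 had 7.95, 14.9 and 26.6 CPM (4.44 ± 0.49, adjusted p = 1.2e-07) and Col1a2 had 14.6, 21.9 and 25.5 CPM (3.61 ± 0.40, 1.14e-07, edgeR). Col3a1 had 1.67, 4.97 and 12.9 CPM (4.76 ± 0.82, 9.53e-05), Col4a1 2.51, 5.55 and 5.93 CPM (4.01 ± 0.73, 0.000194) and Col15a1 1.67, 8.18 and 6.96 CPM (3.77 ± 0.81, 0.00141). None of the 5 overlapped uninjured cord, and all 5 kept their calls without any 1 library. Col4a2 had 1.67, 3.8 and 12.4 CPM, overlapping uninjured cord (1.72, 0.0572).

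Against WT SCI, 0 of 16 collagens in STAT3-CKO SCI flow-through passed in edgeR or DESeq2, with 0.118% of all genes called, 0.0867% higher and 0.0315% lower. An unadjusted p under 0.05 was reached by 2. Col1a1 differed by −0.04 ± 0.47, Col1a2 by 0.40 ± 0.40 and Col3a1 by −0.23 ± 0.77. Col4a2 averaged 5.96 CPM in STAT3-CKO SCI and 1.21 CPM in WT SCI (2.26 ± 0.80, adjusted p = 0.226, edgeR), and Col25a1 had 32 counts in STAT3-CKO SCI and 1 count in WT SCI (adjusted p = 0.32).

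Where collagen RNA lay was tested next, with HA IP over flow-through in each condition, both on 1 CPM scale. In uninjured cord 6 of 25 collagens were higher in HA IP and 4 were lower, where 50.7% of all genes were called, 26.4% higher and 24.2% lower. Col23a1 (ENSMUSG00000063564.13, chr11:51289920-51583918) had 43.8, 35.4, 38.5 and 54.0 CPM in HA IP, against 3.13, 1.84, 1.43 and 2.78 CPM in flow-through. Col1a2 had 40.0, 28.5, 44.5 and 45.2 CPM in HA IP, against 8.69, 8.10, 5.47 and 6.87 CPM in flow-through. Col9a3 had 14.6, 14.95, 24.0 and 18.8 CPM in HA IP, against 1.11, 5.89, 6.43 and 4.09 CPM in flow-through. In all 3 the HA IP libraries were above every flow-through library. The differences were 4.13 ± 0.26 for Col23a1 (adjusted p = 6.58e-07), 2.42 ± 0.22 for Col1a2 (6.56e-06) and 2.13 ± 0.44 for Col9a3 (0.00196, edgeR).

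Col12a1 had 20.9, 17.9, 20.3 and 6.44 CPM in HA IP of uninjured cord, against 8.55, 2.58, 1.90 and 2.17 CPM in flow-through, with animal 154 low in HA IP and animal 42 high in flow-through (2.01 ± 0.52, adjusted p = 0.00747, edgeR). Col4a5 was also higher in HA IP (2.88 ± 0.77, 0.00949), as was Col5a3 (2.87 ± 1.03, 0.0376). Lower in HA IP were Col6a2 (−1.85 ± 0.64, 0.0323), Col8a1 (−1.74 ± 0.59, 0.0309), Col25a1 (−1.69 ± 0.48, 0.0125) and Col4a2 (−0.98 ± 0.37, 0.0453). The partner chains went other ways. Col1a1 had 2.75, 2.37, 1.62 and 1.64 CPM in HA IP and 4.31, 3.68, 3.09 and 2.26 CPM in flow-through, with overlap (−0.67 ± 0.38, 0.158). Col4a1 had 1.96, 3.50, 2.05 and 2.50 CPM in HA IP and 0.834, 0.921, 0.714 and 2.35 CPM in flow-through (1.00 ± 0.49, 0.11, and 1.07, 0.0498, with the animal as a block).

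In the same fit, all 8 neuron markers and 7 of 10 microglia and macrophage markers were lower in HA IP, beside 24.2% of all genes. All 6 oligodendrocyte precursor markers were higher, beside 26.4% of all genes. The part of these cells in the collagen differences was not tested. In fits without the animal as a block, single libraries decided several of the weaker calls between fractions of uninjured cord. Without the flow-through library of animal 65, Col6a2 differed by −1.15 (adjusted p = 0.14, edgeR). Without that of animal 42, Col4a2 differed by −0.58 (0.138), and without that of animal 79, Col5a3 differed by 4.65 (0.0114). Col6a2 also lost its call without HA IP of animal 42, 79 or 154 (0.0597 to 0.0745), Col4a2 without that of 79, 65 or 154 or the flow-through library of 154 (0.0678 to 0.107), Col8a1 without the flow-through library of 42 or 65 or HA IP of 79, 65 or 154 (0.0613 to 0.0712), and Col5a3 without the flow-through library of 42, 65 or 154 (0.0654 to 0.11). The count of 10 was 6 without HA IP of animal 79 or 65 and 5 without that of 154. With the animal as a block, Col6a2 (−1.87, adjusted p = 0.00178), Col8a1 (−1.75, 0.00191), Col4a2 (−0.92, 0.00993) and Col5a3 (2.87, 0.0196, edgeR) were called. No library was left out with that block.

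**Figure D4:**
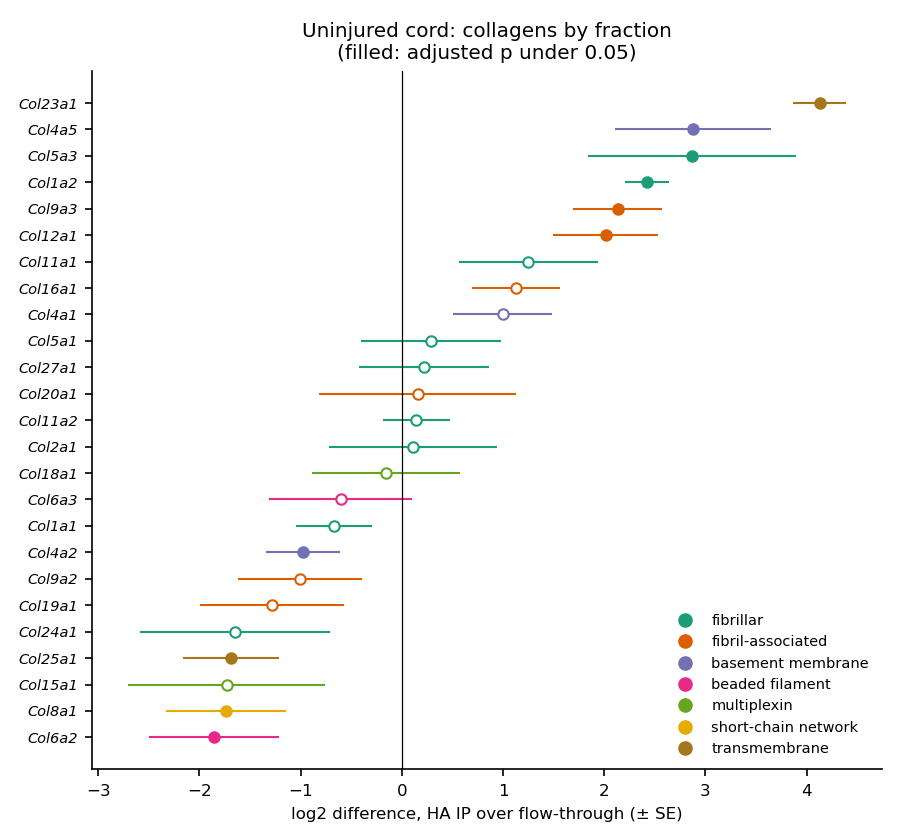
Log2 difference between HA IP and flow-through of uninjured cord with its SE for 25 collagens, coloured by class and ordered by size. Filled points passed an adjusted p under 0.05, with Col23a1 highest at 4.13 and Col6a2 lowest at −1.85.

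After injury fewer collagens had a call between fractions, at lower depth. The astrocyte markers, 8 of 8 higher in HA IP than in flow-through of uninjured cord (median log2 difference 4.41), were 7 of 8 higher in STAT3-CKO SCI (2.64) and 5 of 8 in WT SCI (2.20). The part of this smaller separation in the collagen calls was not tested. In STAT3-CKO SCI, Col9a3 had 11.9, 28.9 and 10.1 CPM in HA IP, against 1.58, 3.56 and 1.97 CPM in flow-through, with no overlap (2.86 ± 0.51, adjusted p = 0.00139, edgeR). Col1a1 had 2.87, 1.96 and 7.33 CPM in HA IP, against 7.52, 14.0 and 25.5 CPM in flow-through, all higher (−1.97 ± 0.52, 0.0191). Col1a2 had 12.5, 12.1 and 18.3 CPM in HA IP, against 13.9, 20.5 and 24.5 CPM in flow-through (−0.47, 0.43). These were the only 2 of 25 collagens called, with 11.8% of all genes called, 7.12% higher and 4.7% lower. The Col1a1 call did not hold without HA IP of animal 531 (−1.62, 0.0925) or the flow-through library of 270 (−1.37, 0.195). With the animal as a block, 7 were called, 5 higher in HA IP (Col9a3, Col11a2, Col12a1, Col20a1 and Col23a1) and 2 lower (Col1a1 and Col15a1). Col1a1 then differed by −2.03 (adjusted p = 7.5e-07, edgeR), with no library left out. The share of all genes called with the block is not given, here or below. Counts from the blocked fits therefore cannot be set against it.

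In WT SCI 0 of 10 tested collagens passed between the fractions in edgeR, 3 had an unadjusted p under 0.05, DESeq2 called 2, and 6.25% of all genes were called. With the animal as a block, Col1a1 (−1.72, adjusted p = 0.0289) and Col3a1 (−1.98, 0.0314) were lower in HA IP. Col11a2 had 3.27 ± 1.00 (0.0543) and was called by DESeq2 (3.41, 0.0175).

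Whether injury acted differently in the 2 fractions was tested as the HA IP difference minus the flow-through difference, WT SCI over uninjured. Col6a2 passed, with 3.43 ± 1.01 (adjusted p = 0.0428, edgeR), 1 of 33 tested, where 4.71% of all genes were called, 2.67% higher and 2.03% lower, and the median over all genes was 0.26. In the same fit 5 of 8 astrocyte markers were lower and 0 higher, with a median of −1.89, and their part in the collagen differences was not tested. Col6a2 lost its call without any 1 uninjured or WT SCI animal but 9935 (0.0592 to 0.159). With the animal as a block, 4 collagens passed: Col6a2 (3.26, 0.000697) and Col11a2 (2.97, 0.0355) rose more in HA IP, while Col1a2 (−2.08, 0.00452) and Col4a1 (−2.57, 0.0162) rose more in flow-through. Without the block the last 3 had 3.29 ± 1.00 (0.0505), −1.76 ± 0.62 (0.107) and −2.61 ± 0.98 (0.133). For STAT3-CKO SCI over WT SCI, 0 of 33 passed in edgeR or DESeq2, 1 had an unadjusted p under 0.05 (Col6a2, −2.68 ± 1.08, adjusted p = 0.756), and 0.0264% of all genes were called, 0.0066% higher and 0.0198% lower.

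Chains that share a trimer were not counted in fixed proportion. Per kb and over summed counts, Col1a1 stood to Col1a2 at 0.316 in STAT3-CKO SCI HA IP, at 0.266 in WT SCI and at 0.0487 in uninjured cord. In flow-through the ratio was 0.882 in STAT3-CKO SCI, 0.975 in WT SCI and 0.403 in uninjured cord. Per library, log2 of the count ratio in HA IP was −2.62 to −1.31 in STAT3-CKO SCI, −2.87 to −0.47 in WT SCI and −4.78 to −3.58 in uninjured cord, so every injured library was above every uninjured one. Animal 270 weighed on the STAT3-CKO SCI sums: without it the ratio of summed counts was 0.181 in HA IP, against 0.35 with it, and 0.636 in flow-through, against 0.978 with it.

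Col4a1 and Col4a2 differed in their balance between single animals. In HA IP, Col4a1 had 20, 58 and 284 counts in STAT3-CKO SCI, 4, 18, 3 and 56 in WT SCI, and 125, 133, 66 and 137 in uninjured cord. Col4a2 had 7, 76 and 383 counts in STAT3-CKO SCI, 0, 3, 3 and 3 in WT SCI, and 350, 187, 79 and 231 in uninjured cord. Col4a2 thus exceeded Col4a1 in all 4 uninjured libraries and in 0 of 4 WT SCI libraries, with equal counts in animal 9843. In flow-through, Col4a1 had 6, 19 and 133 counts in STAT3-CKO SCI, 0, 14, 2 and 53 in WT SCI, and 12, 5, 3 and 27 in uninjured cord. Col4a2 there had 4, 13 and 278 counts in STAT3-CKO SCI, 0, 3, 2 and 3 in WT SCI, and 202, 34, 23 and 84 in uninjured cord. Animal 270 was the 1 STAT3-CKO SCI animal with more Col4a2 than Col4a1 in flow-through. Much of the WT SCI excess lay in animal 9596: Col4a1 over Col4a2 in summed counts was 9.0 in HA IP and 4.17 without that animal, and 8.62 in flow-through and 3.2 without it. Other animals moved flow-through ratios too, to 1.47 without animal 270 in STAT3-CKO SCI (0.536 with it), and to 0.248 without animal 42 or 0.0772 without 154 in uninjured cord (0.137 with them). These ratios were described and not tested.

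**Figure D5:**
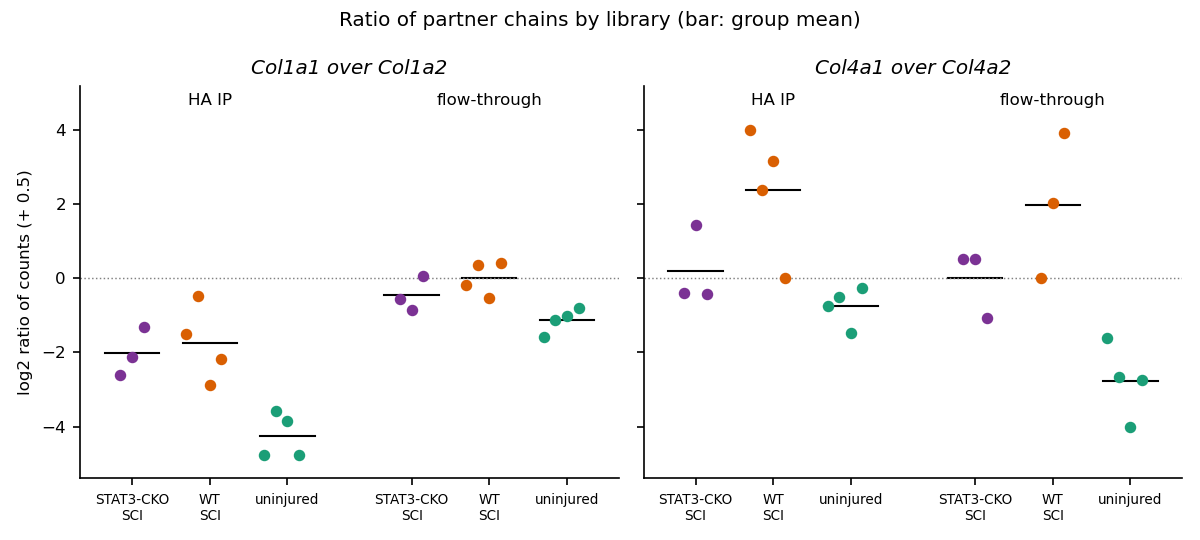
Log2 ratio of counts, each plus 0.5, of Col1a1 over Col1a2 (left) and Col4a1 over Col4a2 (right) in each library, with bars at group means, HA IP and then flow-through, from STAT3-CKO SCI to WT SCI to uninjured. A library with no count of either chain is left out. Mean ratios of Col1a1 over Col1a2 in HA IP are −2.01 in STAT3-CKO SCI, −1.75 in WT SCI and −4.25 in uninjured cord.

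Genes that make, fold and crosslink collagen were set beside the chains. Of 29 tested in HA IP, 2 rose in WT SCI over uninjured cord, Plod3, a lysyl hydroxylase (1.82 ± 0.43, adjusted p = 0.00397), and Glt25d1, a collagen galactosyltransferase (1.71 ± 0.34, 0.00101). Another 2 fell, the prolyl isomerase Ppib (−2.10 ± 0.64, 0.0203) and the galactosyltransferase Colgalt2 (−4.60 ± 1.12, 0.0054, edgeR). These 4 calls stand beside 26.7% of all genes called, and the list's median was 0.42, against 0.00 over all genes. In STAT3-CKO SCI over WT SCI only Colgalt2 passed (5.10 ± 1.15, 0.0336). Over uninjured cord, STAT3-CKO SCI had higher Glt25d1 (1.57 ± 0.35, 0.00582) and Lox, a lysyl oxidase (3.14 ± 0.97, 0.0466).

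In flow-through 7 of 24 rose in WT SCI and 0 fell: the collagen chaperone Serpinh1 (3.65 ± 0.99, adjusted p = 0.00638), Glt25d1 (3.58 ± 0.31, 1.63e-09), Plod3 (2.70 ± 0.43, 2.08e-05), the chaperones Fkbp10 (2.43 ± 0.80, 0.0228) and Crtap (2.37 ± 0.76, 0.0188), and the prolyl hydroxylase subunits P4ha1 (2.25 ± 0.45, 0.000423) and P4hb (1.34 ± 0.29, 0.000814, edgeR). This stands beside 31% of all genes called and 16.7% called higher. STAT3-CKO SCI had 6 higher than uninjured cord and 0 of 24 different from WT SCI in edgeR, where 2 had an unadjusted p under 0.05. In uninjured cord, 14 of 29 were higher in HA IP than in flow-through and 3 lower, again beside 50.7% of all genes. The higher ones included Loxl1 (3.95 ± 0.48), Serpinh1 (3.87 ± 0.35), Loxl2 (3.48 ± 0.61) and P4ha3 (2.99 ± 0.33).

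Collagen receptors were examined the same way. In HA IP 4 of 8 tested were higher in WT SCI than in uninjured cord, the discoidin domain receptors Ddr2 (2.86 ± 0.81, adjusted p = 0.0139) and Ddr1 (2.46 ± 0.29, 6.83e-06), the endocytic receptor Mrc2 (2.6005 ± 0.69, 0.00912) and the leukocyte receptor Lair1 (2.08 ± 0.49, 0.00414, edgeR), beside 26.7% of all genes called and 15.8% called higher. In flow-through 4 of 4 were higher, beside 31% called and 16.7% called higher: Mrc2 (4.05 ± 0.71, 7.53e-05), Lair1 (3.94 ± 0.38, 8.35e-09), the integrin subunit Itgb1 (1.75 ± 0.34, 0.000239) and Ddr1 (1.15 ± 0.34, 0.0109). Between STAT3-CKO SCI and WT SCI, 0 of 8 receptors passed in edgeR in HA IP, where 2 had an unadjusted p under 0.05, and 0 of 4 in flow-through, where 0 had.

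Members below the count filter could not be tested in HA IP: Col4a4, Col6a4, Col6a5, Col6a6, Col7a1, Col10a1, Col13a1, Col14a1, Col17a1, Col22a1, Col26a1 and Col28a1. These 12 had 15 (Col6a5) to 126 (Col26a1) counts over all 22 libraries. In flow-through 28 were below the filter. The authors' deposited table covers all 44 collagens in HA IP and, at a false discovery rate under 0.05, lists 20 higher and 0 lower in STAT3-CKO SCI over uninjured cord, 20 higher and 1 lower in WT SCI over uninjured cord, and 2 higher and 2 lower in STAT3-CKO SCI over WT SCI. For flow-through the authors' deposited table gives 12 and 0, 18 and 1, and 0 and 0 of 41 collagens. The share of all genes called by the authors is not given here, so these counts cannot be set against it.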

How the data were processed

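RNA was measured in HA IP and flow-through of spinal cord from 11 mice. Per the labels' protocols, the NuGEN Ovation V2 kit amplified cDNA from 5 ng, and libraries took 300 ng of it through 10 cycles of PCR. CASAVA 1.8.2, mm10 and edgeR are named, per the submitters' processing notes; no aligner, counter, strand setting or annotation is given in the sources used here. The authors deposited raw counts per gene, per the file headers, with their own log2 fold changes and false discovery rates (adjusted p-values), from which only counts of collagens were taken. Another 124 per-sample columns were not used. All 22 libraries stand in 2 tables with 0 differing counts.

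Groups follow the labelled genotype, condition and RNA type. The labels give separate animals, so spreads are between animals. Within a fraction, 11 libraries entered 1 fit; HA IP and flow-through of 1 condition, and all 22 libraries for differences between fractions, had fits of their own. Genes passed filterByExpr, libraries were scaled by TMM, and edgeR 4.0.16 (R 4.3.3) gave two-sided quasi-likelihood tests with Benjamini-Hochberg adjustment over all genes tested, and called genes have an adjusted p under 0.05. The procedure was tested on simulated data. CPM are the deposited counts over TMM-scaled library sizes, so HA IP and flow-through CPM compare only in their joint fits. Lengths (longest coding transcript) and coordinates are from GENCODE vM21. Intervals cover counting error only (95% confidence). DESeq2 1.42.0, RLE scaling, other filters, thinning, other sample sets, an animal block and leaving out each library were alternatives. HA IP and flow-through libraries with 1 number come from 1 animal and deviated together (r 0.22 to 0.75 in all 11 pairs).

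The collagens, the other gene lists and the naming rule were chosen with earlier results of these data known. The rule names every called collagen, and gives library values for up to 4 called members per comparison with the highest CPM, for fixed chains of types I, III, IV and VI in injured against uninjured cord, and for uncalled partners of called chains. Col4a2, Col6a2, Col8a2 and others without a call between the injured genotypes, Col12a1, Col25a1 and Col11a2 in places, and differences between fractions were named after their values were seen.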

Additional observations from a re-analysis of the deposited data

Results flagged for a closer look

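Of 60 groups of 4 animals checked for 15 collagens, 8 held a library whose gap to the others passed Dixon's 95% limit; chance gives about 1 in 20, or 3. WT SCI animal 9843 stood high in HA IP for Col6a2, with 21.3 CPM against 1.63 to 4.53 CPM in the other 3 animals, and for Col11a2, with 20.7 CPM against 3.84 to 6.19 CPM. In flow-through, Col11a2 had 2.73 CPM in WT SCI animal 9596 and 0 in the other 3, and 0.563 CPM in uninjured animal 79 against 0.785 to 0.822 CPM. With 0 in the other 3 libraries any count passes the limit, so the flag of animal 9596 was fixed in advance. It rested on 8 counts in the deepest WT SCI flow-through library. Col12a1 in uninjured cord was low in HA IP of animal 154 (1.23 CPM against 3.54 to 3.99 CPM) and high in flow-through of animal 42 (1.96 CPM against 0.448 to 0.607 CPM). Flow-through of uninjured cord also held a high Col4a1 value in animal 154 (0.541 CPM against 0.168 to 0.217 CPM) and a high Col6a2 value in animal 65 (2.41 CPM against 0.588 to 0.693 CPM).

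The injury difference of Col6a2 was larger in HA IP than in flow-through by 3.43 on the log2 scale (edgeR, adjusted p = 0.0428), a difference tested directly. The cause was not tested.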

How the results depend on the processing

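Of 54 called collagen results, 16 kept their call in every alternative in which they could be tested, and 0 reversed. Of these 16, only Col1a2 and Col23a1 in HA IP over flow-through of uninjured cord could be tested after thinning to equal depth. Of the results not called, 31 were called in some alternative. The main limit is depth: thinned to equal depth, 10 collagens could be tested in HA IP and 1 in flow-through, and the count of called collagens was 0 in every comparison with calls except HA IP over flow-through in uninjured cord, where it was 2; the biosynthesis counts were 0 as well. Calls over all genes fell likewise, to 163 thinned against 3938 unthinned in HA IP of WT SCI over uninjured cord and to 147 against 3933 in flow-through. In that HA IP comparison the thinned log2 differences were 2.91 for Col1a1 (3.53 unthinned), 3.21 for Col9a3, 3.40 for Col6a2 and 3.51 for Col16a1, with adjusted p of 0.255 to 0.462 (edgeR). Col11a2 and Col11a1 also lost their calls when thinned, with higher adjusted p of 0.596 and 0.661 (edgeR). Their lowest log2 differences over all alternatives were 2.17 and 2.07, against 3.65 and 3.29 in the main fit. Thinning moved the median over all genes in HA IP of WT SCI over uninjured cord to 0.30, and dropping the filter moved it to −0.21.

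Without the filter on low counts, called collagens numbered 17 in flow-through of WT SCI over uninjured cord, 12 in flow-through of STAT3-CKO SCI over uninjured cord, 6 between fractions of STAT3-CKO SCI and 1 between fractions of WT SCI. DESeq2 called 15 in HA IP of STAT3-CKO SCI over uninjured cord, 3 of STAT3-CKO SCI over WT SCI, 6 and 2 between fractions of STAT3-CKO SCI and WT SCI, and 5 in the difference between fractions; its biosynthesis counts in HA IP were 7 for WT SCI over uninjured cord and 4 for STAT3-CKO SCI over WT SCI. With only the 2 groups compared in the fit, the count was 16 in HA IP of STAT3-CKO SCI over uninjured cord, 6 in flow-through of WT SCI over uninjured cord, and 0 for collagens and 0 for biosynthesis in HA IP of STAT3-CKO SCI over WT SCI. The difference between fractions had 0 with 4 groups in the fit and 0 with RLE scaling. Between fractions of WT SCI, 1 was called without ribosomal genes and 1 with all 22 libraries in the fit, which gave 3 for STAT3-CKO SCI. With the replicate block, counts were 2 for WT SCI, 7 for STAT3-CKO SCI and 4 for the difference between fractions, and in uninjured cord 13 against 10 without it, where Col4a1, Col15a1 and Col16a1 were added. Calls over all genes are not given for the alternatives in this paragraph, so these counts have no share to stand beside.

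Leaving out 1 library at a time, called collagens ranged from 10 to 14 in HA IP of WT SCI over uninjured cord, 5 to 10 of STAT3-CKO SCI over uninjured cord and 0 to 2 of STAT3-CKO SCI over WT SCI. In flow-through they ranged from 6 to 14 for WT SCI over uninjured cord and from 5 to 8 for STAT3-CKO SCI over uninjured cord. Between fractions they ranged from 5 to 11 in uninjured cord, 1 to 5 in STAT3-CKO SCI and 0 to 1 in WT SCI, and for the difference between fractions from 0 to 1. Biosynthesis counts in HA IP ranged from 3 to 8 for WT SCI over uninjured cord and from 0 to 5 for STAT3-CKO SCI over WT SCI. Calls over all genes are not given for the fits with 1 library left out. These ranges, and the counts from such fits further above, thus have no share to stand beside. For counts that moved, the cause was not tested beyond the fewer genes or samples an alternative leaves.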
